A study of Mus musculus with 6 samples.

Results

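Transcripts of cholesterol and fatty acid synthesis were compared between 2 groups of 3 arrays, 1 called control and 1 labelled Klf4-deficient. Members were every probe whose symbol in the platform annotation was 1 of 32 listed genes, which gave 49 of the 34885 probes with 1 symbol and 29 of the 19057 genes. These fell into 15 genes of the sterol branch, 8 of the fatty acid branch and 6 regulators and transport genes. Acat2, Hmgcs1 and Fdft1 were not analysed here.

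Each array held RNA of 1 sample of mouse T cell acute lymphoblastic leukemia (T-ALL) cells, measured on Illumina bead arrays. Per the labels, NOTCH1 had induced the leukemia in both groups, and male mice gave bone marrow cells at 4 weeks after transplantation that were sorted as positive for GFP, CD4 and CD8. The groups are called wild type and knock out in the labels and control and Klf4 deficient in the design text. The sources used here do not give the strain, the age, the promoter behind GFP or the way Klf4 was removed. The labels do not say that the samples of a group came from separate animals, so p-values rest on a spread that may be only technical.

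Cholesterol is built from acetyl-CoA through mevalonate, farnesyl diphosphate and squalene, and a chain of enzymes of the endoplasmic reticulum then turns the first ring-shaped product into cholesterol. Fatty acids branch off at the same acetyl-CoA, which is carboxylated, built into a saturated chain, lengthened and desaturated. Transcription of both branches is driven by the SREBP factors. SREBP2, from Srebf2, acts mainly on sterol genes, and SREBP1, from Srebf1, mainly on fatty acid genes. Scap carries the SREBPs out of the endoplasmic reticulum for cleavage when sterols are low, and the Insig proteins hold them back when sterols are plentiful. Dividing T cells make membrane and draw on both branches.

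Promoter sequence was set out for the 5 genes whose groups did not overlap, 3 of the sterol and 2 of the fatty acid branch, because both branches answer to SREBP acting with other factors bound close by. The 150 bases before the start are shown 5′ to 3′ from RefSeq (GRCm38.p6). Capitals mark CCAAT, the core read by NF-Y, and GGGCGG, a GC box of the Sp factors, on either strand, so that ATTGG and CCGCCC are their reverse forms.
Msmo1, chr8:64733579-64733728, minus strand: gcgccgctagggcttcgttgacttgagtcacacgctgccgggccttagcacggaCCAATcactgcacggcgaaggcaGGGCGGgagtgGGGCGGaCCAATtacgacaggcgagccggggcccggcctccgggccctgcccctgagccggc
Ebp, chrX:8193513-8193662, minus strand: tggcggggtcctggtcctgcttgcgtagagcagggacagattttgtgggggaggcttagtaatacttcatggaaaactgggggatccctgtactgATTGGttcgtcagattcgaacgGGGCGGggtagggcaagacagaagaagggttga
Lss, chr10:76531455-76531604, plus strand: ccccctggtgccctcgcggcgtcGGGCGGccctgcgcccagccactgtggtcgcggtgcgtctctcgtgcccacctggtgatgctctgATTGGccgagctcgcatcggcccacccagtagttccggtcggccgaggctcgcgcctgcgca
Fasn, chr11:120824548-120824697, minus strand: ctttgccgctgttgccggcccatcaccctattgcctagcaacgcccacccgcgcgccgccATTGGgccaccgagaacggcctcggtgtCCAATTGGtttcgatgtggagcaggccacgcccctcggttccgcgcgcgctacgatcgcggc
Elovl6, chr3:129532236-129532385, plus strand: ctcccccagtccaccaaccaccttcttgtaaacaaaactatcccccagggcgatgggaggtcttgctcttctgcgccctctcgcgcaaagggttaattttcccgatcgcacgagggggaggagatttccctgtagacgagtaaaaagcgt

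Msmo1 holds 2 CCAAT and 2 GGGCGG in this window, Ebp and Lss hold 1 of each, Fasn holds 3 CCAAT and 0 GGGCGG, and Elovl6 holds neither. In Fasn a CCAAT and an ATTGG overlap within CCAATTGG. Over the whole 250 bases before the start, 23 of the 29 measured genes had an entry, with 31 promoters. CCAAT stood in 13 of 13 sterol genes, 1 of 5 fatty acid genes and 4 of 5 regulators and transport genes, against 37.5% of the 27025 genes in the table. GGGCGG stood in 12 of 13 sterol genes, 2 of 5 fatty acid genes and 5 of 5 regulators, against 35.4% of all genes. A gene counted if any of its promoters held the letters. By promoter, CCAAT stood in 13 of 16 sterol, 1 of 5 fatty acid and 5 of 10 regulator promoters, against 33.8% of all. GGGCGG stood in 13 of 16, 2 of 5 and 7 of 10, against 32.7%. The core of the sterol regulatory element was searched on both strands as TCACNCCAC. It stood in 0 of the 31 member promoters and in 1.05% of the 32851 promoters in the table. A match describes the letters, and their absence says nothing about binding.

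Array quality and the labels bear on every value that follows. Mean probe signal ran from 417 to 445 in the control arrays and was 426, 432 and 359 in arrays 1, 2 and 3 labelled Klf4-deficient. The last of these stood apart: its correlations with the other 5 arrays ran from 0.971 to 0.982, and those among the other arrays from 0.986 to 0.993, across probes above background. The background limit, 3 SDs of the negative values mirrored at 0, lay between 21.8 and 23.7 on each array, and a probe brighter than it counts as above background. The brightest Klf4 probe gave 44, 18.4 and 24.6 in controls and 80.6, 46 and 85.4 in the arrays labelled Klf4-deficient. It was thus higher in the group labelled deficient, and its place relative to the deleted part is unknown, so it does not check the label. The label is therefore used here as a name only. Of the sorted cells' own markers, 10 of 11 measured were above background on all 6 arrays, Cd4 and Cd8b1 among them, while Cd8a passed the limit on all 3 controls and on 1 of 3 arrays labelled Klf4-deficient.

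Markers of 4 of 6 other cell types lay above all controls in at least 1 array labelled Klf4-deficient. Relative to the control mean on the log2 scale, 11 erythroid markers lay at -0.35, 0.13 and 0.22 in the controls and at 0.18, 0.91 and 1.57 in arrays 1, 2 and 3 labelled Klf4-deficient. The 13 monocyte and macrophage markers lay between -0.04 and 0.05 in the controls and at 0.31, 0.73 and 1.33 in those labelled Klf4-deficient. The 12 neutrophil markers were at 1.20 in array 3 labelled Klf4-deficient and between -0.24 and 0.30 in the other 5 arrays. The 9 NK and cytotoxic markers lay between -0.11 and 0.10 in the controls and at 0.26, 0.62 and 0.72 in the others. The other two lists did not. The 6 B lineage markers lay at -0.26, 0.16 and 0.11 in the controls and at -0.08, 0.12 and 0.001 in the arrays labelled Klf4-deficient, and the 9 stromal and adipocyte markers, 7 of them above background on 0 arrays, lay between -0.08 and 0.07 and at 0.06, -0.33 and 0.02. Summed signal ran from 35231 to 42931 in controls and from 42956 to 58045 in the arrays labelled Klf4-deficient for erythroid markers. For monocyte markers it ran from 3838 to 5153 and from 4684 to 11529, for neutrophil markers from 74471 to 103347 and from 75634 to 144082, and for NK markers from 2139 to 3125 and from 2657 to 3539. Epb42 of the erythroid, Mmp8 of the neutrophil and Klrk1, Gzmb and Ncr1 of the NK list passed the limit on 0 arrays, and every monocyte marker passed it on at least 1. Summed B lineage signal ran from 671.9 to 888.7 in controls and from 556.5 to 790.0 in the others, and summed stromal and adipocyte signal from 121.1 to 168.9 and from 100.6 to 175.4. A change in the number of cells of a type and a change in RNA per cell cannot be told apart in these bulk samples.

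**Figure D1:**
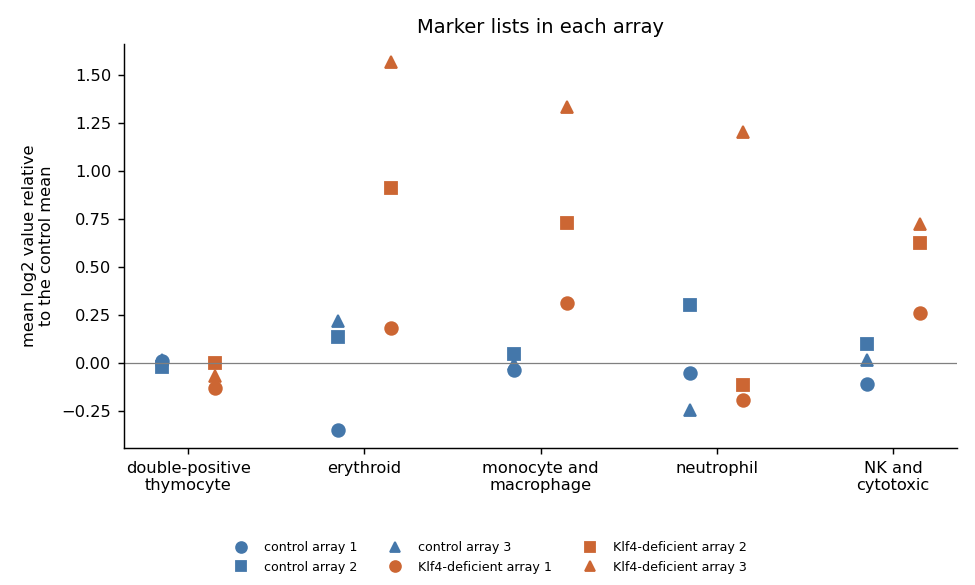
Mean log2 value of each marker list relative to the control mean (vertical axis) in the 6 arrays, 1 point per array. Array 3 labelled Klf4-deficient is the highest for erythroid (1.57), monocyte (1.33), neutrophil (1.20) and NK (0.72) markers, and array 1 of that group is the lowest of its 3 for all 4 lists.

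No member gene passed the test in either direction. Of the 13 sterol genes with signal 10 lay above 0, where 4407 of all 9208 genes with signal did. Msmo1, Ebp and Lss were higher in the arrays labelled Klf4-deficient without overlap between the groups. Elovl6 and Fasn of the fatty acid branch lay lower without overlap, and for 0 of 6 regulators and transport genes were the groups apart. In limma 0 of the 29 measured members had an adjusted p under 0.05, where 0.0105% of all 19057 genes did (2 genes), and the smallest adjusted p of a member was 0.171, of Msmo1. At an unadjusted p under 0.05, 3 members were higher and 2 lower (Fasn and Elovl6), 5 of 29 (17.2%), beside 7.60% of all genes. Of the 29 genes, 25 had a mean signal over the 6 arrays above the mean background limit of 22.6. The share at that unadjusted p was 20.0% of these 25, and 16.7% without Fasn. Of the 9208 genes with such signal 435 were higher and 581 lower at that p, a larger share than the 7.60% of all genes. The 7.60% is thus too low a background for members that mostly had signal. Among those 25, the groups did not overlap for 5 (20.0%), against 17.3% of the 9208 genes with such signal, so by this measure the members as a whole stood near the background. Fasn was among the 5 and passed the limit on mean signal only through the controls, so it had to differ, and without it the groups did not overlap for 4 of 24 (16.7%). Divided by branch, 3 of 13 sterol genes lay higher without overlap, where 7.71% of genes with signal did. In the fatty acid branch without Fasn 1 of 5 lay lower without overlap, where 9.63% did. These shares rest on few genes and were not tested.

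**Figure D2:**
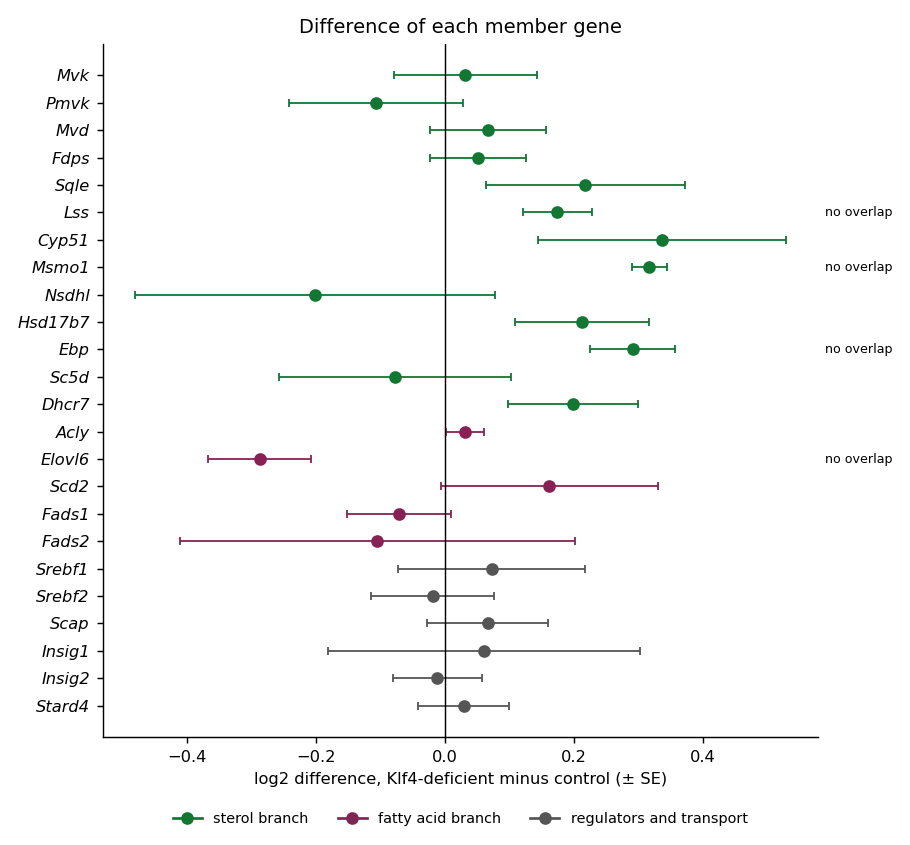
Log2 difference of the 24 genes above the background limit on at least 1 array of each group, labelled Klf4-deficient minus control, with its standard error (horizontal axis), grouped by branch. The 4 genes marked as not overlapping are Lss, Msmo1 and Ebp at 0.17, 0.32 and 0.29 and Elovl6 at -0.29. Fasn, Acaca, Scd1, Idi1 and Tm7sf2 are not drawn, since at least 1 of their groups was under the limit on all its arrays.

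Msmo1, the methylsterol monooxygenase that takes part in removing the methyl groups of the sterol ring, had the smallest adjusted p of the members. Its deposited signal was 512.1, 458.4 and 486.4 in the controls and 611.4, 599.0 and 492.5 in arrays 1, 2 and 3 labelled Klf4-deficient. After normalization the controls lay, in log2 units, at 8.94, 8.92 and 8.90 and the others at 9.28, 9.22 and 9.20. The groups did not overlap after normalization, but the deposited signal of array 3 labelled Klf4-deficient lay below that of control array 1. The log2 difference was 0.32 ± 0.03 (SE, n = 3 per group), a fold of 1.25, with an adjusted p of 0.171 in limma.

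Ebp, the isomerase that shifts a double bond of the sterol ring, had deposited signals of 721.2, 713.5 and 712.5 in the controls. In the arrays labelled Klf4-deficient they were 790.7, 923.3 and 745.9, so that the groups did not overlap on the deposited scale either. The normalized difference was 0.29 ± 0.07 (SE, n = 3 per group), a fold of 1.22 (adjusted p = 0.450 in limma). Ebp was the one sterol gene whose groups did not overlap with no normalization between arrays.

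Lss closes the ring, turning oxidosqualene into lanosterol. Its signal was 327.7, 286.8 and 307.8 in controls and 345.4, 365.6 and 271.5 in the arrays labelled Klf4-deficient. After normalization the controls lay from 8.26 to 8.32 and the other group from 8.36 to 8.54, without overlap. The difference was 0.17 ± 0.05 (SE, n = 3 per group; adjusted p = 0.555 in limma). A second, dimmer Lss probe differed by 0.01 ± 0.21, and 1 more was under the limit on all 6 arrays, so the brightest probe alone carries the Lss value.

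Cyp51, which removes a methyl group from lanosterol, had the highest difference of the branch and a wide spread. Its signal was 148.5, 134.9 and 197.6 in the controls and 235.6, 217.4 and 141.0 in the arrays labelled Klf4-deficient. Arrays 1 and 2 of that group lay above every control, and array 3 fell among them. The difference was 0.34 ± 0.19 (SE, adjusted p = 0.783 in limma).

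Sqle, the epoxidase that opens the path from squalene, followed the same order. Its signal was 891.3, 819.9 and 1052.4 in controls and 1256.1, 1073.1 and 735.1 in arrays 1, 2 and 3 labelled Klf4-deficient. Arrays 1 and 2 again exceeded all controls, and array 3 was the lowest of all 6 before normalization. The difference was 0.22 ± 0.16 for this probe and 0.09 ± 0.25 for a second Sqle probe above background.

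Hsd17b7, which reduces the ketone left after demethylation, differed by 0.21 ± 0.10, and Dhcr7, the last reductase of the chain, by 0.20 ± 0.10. Their groups overlapped. Nsdhl, which works between Msmo1 and Hsd17b7, and Sc5d, a desaturase of the late steps, differed the other way, at -0.20 ± 0.28 and -0.08 ± 0.18. All 4 Nsdhl probes lay below 0, from -0.20 to -0.07, and for 1 of them, at -0.18 ± 0.10, the groups did not overlap. Tm7sf2, a sterol reductase, passed the limit on 1 of 3 controls and 0 of 3 arrays labelled Klf4-deficient, and no fold is given. Of the 9 genes from squalene onward with signal above the limit, 7 lay above 0 and 2 below (median log2 difference 0.21), 3 were free of overlap and 0 passed the adjusted threshold. Among all 9208 genes with signal 4407 lay above 0, and 7.71% were higher without overlap. The division at squalene was drawn after the values were seen and was not tested.

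The 4 enzymes before squalene with signal followed. The kinases Mvk and Pmvk, which phosphorylate mevalonate, differed by 0.03 ± 0.11 and -0.11 ± 0.13. Mvd, the decarboxylase that follows, differed by 0.07 ± 0.09, and Fdps, which joins the units into farnesyl diphosphate, by 0.05 ± 0.07. The second Fdps probe gave 0.08 ± 0.11. The median of these 4 was 0.04, with 0 of them free of overlap between groups. Idi1, the isomerase between Mvd and Fdps, was under the limit on all 6 arrays.

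**Figure D3:**
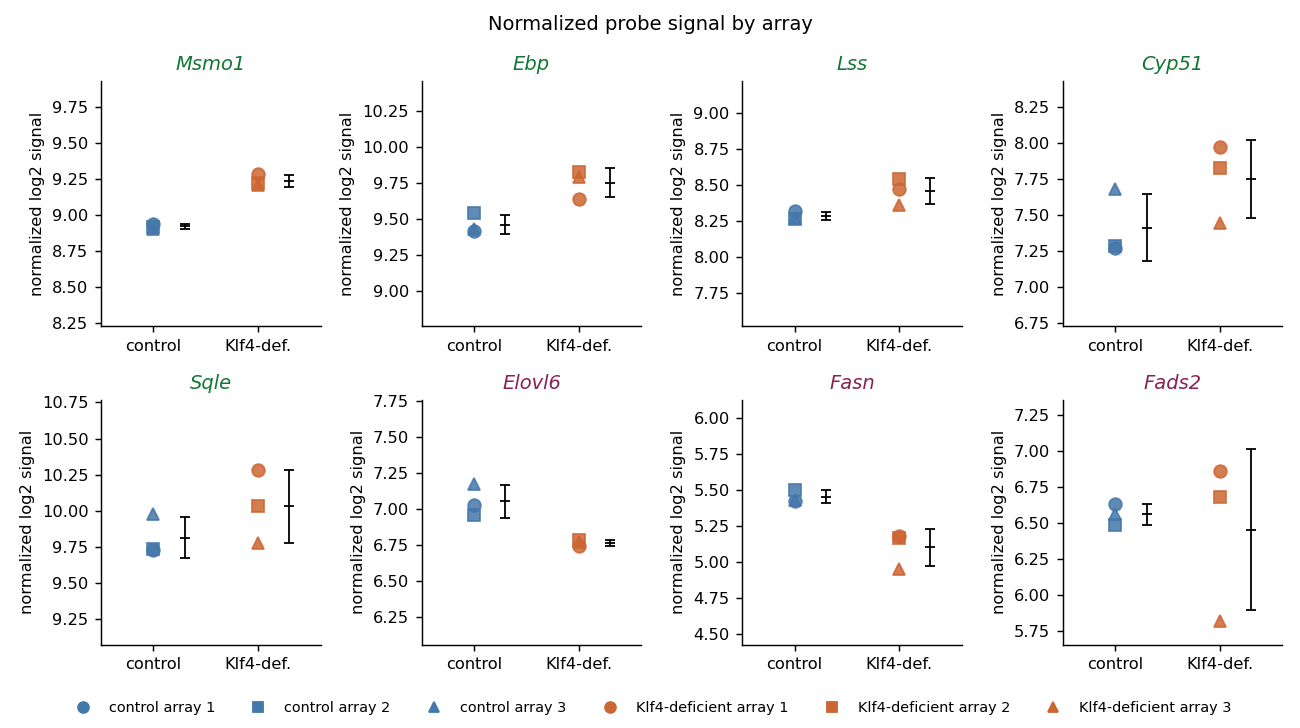
Normalized log2 signal (vertical axis, each panel spanning the same height of log2 units) of 8 member genes in the 6 arrays, 1 point per array, with bars for mean and SD. Msmo1, Ebp and Lss lie higher and Elovl6 and Fasn lower in the arrays labelled Klf4-deficient without overlap, whereas array 3 of that group falls within or below the range of the controls for Cyp51, Sqle and Fads2. The 3 Fasn points of that group come from signals under the background limit.

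Elovl6 and Fasn of the fatty acid branch were lower in the arrays labelled Klf4-deficient. Elovl6, which lengthens saturated chains, had signals of 123.6, 104.4 and 135.3 in controls and 90.0, 95.8 and 85.1 in the other group, with no overlap before or after normalization. Its difference was -0.29 ± 0.08 (SE, n = 3 per group), a fold of 0.819 (adjusted p = 0.531 in limma). A second Elovl6 probe was under the limit on all 6 arrays. Fasn, the synthase that builds palmitate, had signals of 28.0, 29.5 and 28.6 in controls, just above the limit. In the arrays labelled Klf4-deficient they were 19.2, 20.0 and 14.5, under it on all 3. With the dim arrays taken at the lowest signal counted as above background, the mean Fasn signal was 1.13-fold higher in controls. That fold carries no error, and Fasn passed the limit on mean signal only through the controls. The limma test of the normalized values gave an adjusted p of 0.543.

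For the other fatty acid genes with signal the groups overlapped, with Fads1 and Fads2 below 0 and Acly and Scd2 above. Acly, which supplies both branches with acetyl-CoA from citrate, had signals from 8795 to 9720 in controls and of 9276, 9376 and 7400 in the arrays labelled Klf4-deficient. Its normalized difference was 0.03 ± 0.03. Scd2, a desaturase that makes monounsaturated chains, differed by 0.16 ± 0.17, and Fads1, which desaturates polyunsaturated chains, by -0.07 ± 0.08, with a second probe at -0.07 ± 0.18. Fads2, the desaturase that acts before Fads1, had signals of 89.7, 71.6 and 81.2 in controls and 99.3, 87.9 and 37.2 in arrays 1, 2 and 3 labelled Klf4-deficient. The difference of this probe, -0.10 ± 0.31, turned to 0.21 with array 3 of that group left out. Its arrays 1 and 2 lay above all controls after normalization. A second Fads2 probe above background had signals of 68.6, 77.8 and 63.8 in controls. In arrays 1, 2 and 3 labelled Klf4-deficient it had 71.9, 65.9 and 50.6, a difference of -0.07 ± 0.13. The order of arrays 1 and 2 above all controls was thus not seen in that probe. Acaca, the carboxylase of the first committed step, and Scd1 were under the limit on all 6 arrays, so no level or fold is given for them.

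The branches were then set against each other. Over the 13 sterol genes with signal the median log2 difference was 0.17, and over the 5 fatty acid genes left without Fasn it was -0.07 (-0.09 over 6 with it), beside -0.01 over all 9208 genes with signal. The 4 genes with a mean signal under the limit were Idi1, Tm7sf2, Acaca and Scd1, whose differences are values near the floor. Including them the medians were 0.07 for 15 sterol genes and -0.02 for 8 fatty acid genes, Fasn counted. Without Fasn the middle value of that fatty acid list was that of Acly, 0.03. The sign of its median thus rested on Fasn and on Acaca and Scd1, both under the limit on every array. With Fasn, Acaca and Scd1 all left out the median was the -0.07 given above. The mean of the sterol branch relative to the controls was 0.13, 0.22 and 0.001 in arrays 1, 2 and 3 labelled Klf4-deficient and between -0.05 and 0.04 in the controls. The fatty acid branch without Fasn lay at 0.09, -0.03 and -0.23 in the same 3 arrays and between -0.08 and 0.09 in the controls. Each branch alone thus overlapped between groups. Within an array, sterol minus fatty acid without Fasn was 0.04, 0.24 and 0.23 in the arrays labelled Klf4-deficient and -0.14, 0.08 and 0.05 in the controls, and array 1 of the first group lay among the controls. With Fasn counted it was 0.10, 0.29 and 0.27 against -0.12, 0.06 and 0.06, so the lack of overlap rested on that 1 gene.

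Array 3 labelled Klf4-deficient was the lowest of its group for both branches. Without it, 6 of 13 sterol and 2 of 6 fatty acid genes lay higher without overlap, where 13.8% of all genes with signal did in this smaller design. In the fatty acid branch 2 genes lay lower, where 13.9% of all genes with signal did. The 6 fatty acid genes include Fasn, here and in the next values. The sterol median was 0.14 and the fatty acid median turned to 0.02. Without array 1, the fatty acid median was -0.21. Array 1 alone gave a sterol median of 0.18 and a fatty acid median of 0.05 against the 3 controls. Above all controls lay 7 of 13 sterol and 3 of 6 fatty acid genes, where 28.7% of genes with signal did. Below all controls lay 1 sterol and 2 fatty acid genes, where 27.8% did. The erythroid, monocyte and NK values of array 1 were the nearest of its group to the controls. Its 11 markers of the sorted cells themselves were the farthest, at -0.13. They lay at -0.0005 and -0.07 in arrays 2 and 3 of that group and between -0.02 and 0.01 in the controls. The part of other cells in the values of arrays 2 and 3 was not tested.

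**Figure D4:**
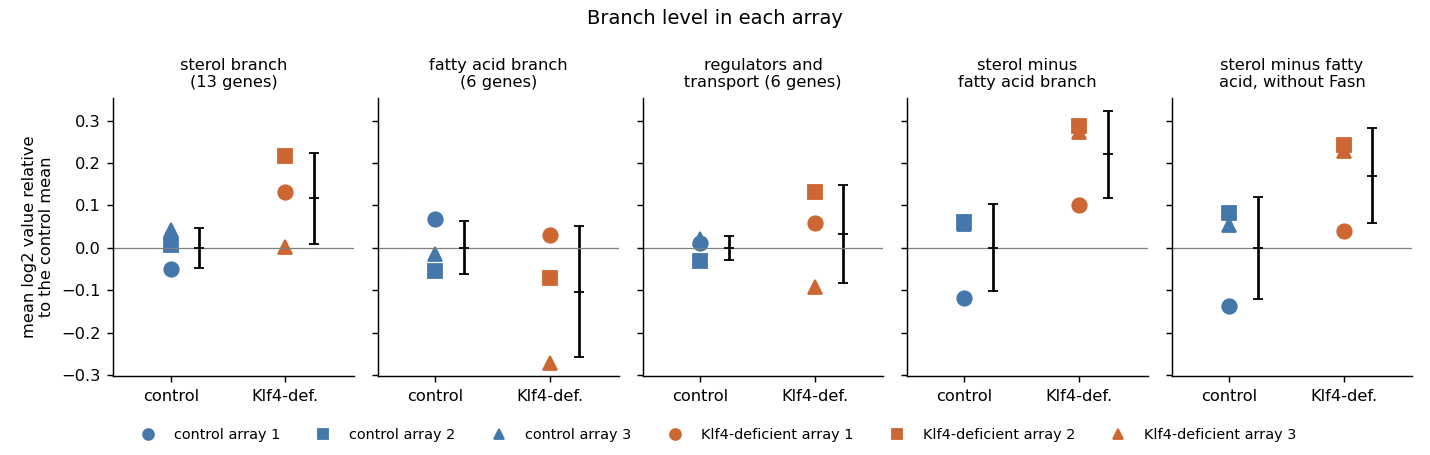
Mean log2 value of each branch relative to the control mean (vertical axis) in the 6 arrays, for genes with signal above the limit, with bars for mean and SD over 3 arrays. Sterol minus fatty acid lies above all 3 controls at 0.10, 0.29 and 0.27 with Fasn, but at 0.04 array 1 labelled Klf4-deficient falls among the controls without it.

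Regulators of the pathway differed by less than 1 SE from 0. Srebf2 had signals of 1063.7, 915.5 and 1175.5 in controls and 1034.2, 1117.9 and 768.6 in the arrays labelled Klf4-deficient, a normalized difference of -0.02 ± 0.09, and its second probe gave -0.01 ± 0.12. Srebf1 differed by 0.07 ± 0.15, and 1 further Srebf1 probe was under the limit on all 6 arrays. Scap differed by 0.07 ± 0.09, with 0.03 ± 0.13 for the second probe. Insig2 differed by -0.01 ± 0.07 and its second bright probe by 0.02 ± 0.13.

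Insig1, itself a target of SREBP2 and often read beside the sterol enzymes, had signals of 50.8, 32.2 and 39.9 in controls and 49.0, 52.1 and 25.2 in the arrays labelled Klf4-deficient. After normalization the controls lay from 5.59 to 5.99. Arrays 1 and 2 labelled Klf4-deficient lay above them at 6.05 and 6.06 and array 3 below at 5.42. The groups thus overlapped, with a difference of 0.06 ± 0.24, and 3 further Insig1 probes were above background on at most 1 array. Stard4, a carrier of cholesterol between membranes, had 371.2, 327.6 and 374.8 in controls and 374.4, 379.7 and 275.4 in the other group, a difference of 0.03 ± 0.07. None of these 6 genes had groups that did not overlap, and their median was 0.04.

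Genes around the pathway were read from lists that name the other steps, and 0 genes of these lists passed at the adjusted threshold in limma. Their counts without overlap, over few genes each, stand beside 7.71% higher and 9.63% lower among all genes with signal. Of 10 other synthesis genes with signal above the limit, 1 lay higher and 1 lower without overlap (median -0.01). Mcat, a transferase of mitochondrial fatty acid synthesis, differed by -0.24 ± 0.05, and Mid1ip1, which activates the carboxylase Acaca, by 0.32 ± 0.13. Of 7 isoprenoid genes, which draw on the products of Idi1 and Fdps, 1 lay higher without overlap (median -0.02). This was Dhdds, a subunit of the enzyme that makes dolichol chains, at 0.15 ± 0.04. Idi2, a second isomerase beside Idi1, had 2001.0, 926.8 and 1075.9 in controls and 781.0, 1049.4 and 615.1 in the other group, a difference of -0.55 ± 0.32, with control array 1 far above the other 5 arrays.

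The list of SREBP processing and degradation had 4 genes with signal above the limit, 3 of which lay lower without overlap (median -0.17), beside 9.63% of all genes with signal. Mbtps1, the first protease that cleaves the SREBPs, had signals of 1244.2, 1158.0 and 1278.7 in controls and 1007.4, 1070.2 and 925.3 in the arrays labelled Klf4-deficient, a difference of -0.17 ± 0.05 (adjusted p = 0.522 in limma). The ubiquitin ligases Marchf6, which marks squalene epoxidase for breakdown, and Rnf145 differed by -0.16 ± 0.05 and -0.30 ± 0.12. Sec23a, a coat protein of vesicles that leave the endoplasmic reticulum, differed by 0.02 ± 0.23.

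Uptake and transport genes had a median of -0.01 over 8 with signal, with 2 higher and 0 lower without overlap (7.71% and 9.63% among all genes with signal). Stard3, which tethers late endosomes to the endoplasmic reticulum and moves cholesterol, had signals of 1448.1, 1327.6 and 1388.7 in controls and 1669.8, 1574.6 and 1379.8 in the arrays labelled Klf4-deficient, and differed by 0.26 ± 0.03 (adjusted p = 0.330 in limma). Npc2, which hands cholesterol over inside lysosomes, differed by 0.21 ± 0.07, and its partner Npc1 by -0.08 ± 0.09. The lysosomal lipase Lipa differed by -0.07 ± 0.13.

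Efflux genes, which answer to the sterol-sensing LXR receptors, had a median of 0.31 over 6 with signal, with 1 higher and 0 lower without overlap, beside the same shares. The transporter Abcg1 had 232.7, 193.2 and 212.1 in controls and 264.3, 298.3 and 199.4 in arrays 1, 2 and 3 labelled Klf4-deficient, a difference of 0.32 ± 0.09 (adjusted p = 0.543 in limma). Nr1h3, which encodes LXR alpha, had 35.3, 30.0 and 47.7 in controls and 45.3, 72.5 and 80.9 in the others, a difference of 0.67 ± 0.25. Abcg4 and Apoe differed by 0.92 ± 0.39 and 0.30 ± 0.14. Signals of Nr1h3 and Abcg4 were highest in arrays 2 and 3 labelled Klf4-deficient, the arrays where monocyte markers lay at 0.73 and 1.33 and erythroid markers at 0.91 and 1.57. Their part in the difference was not tested.

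Fatty acid oxidation, the route that burns what the other branch makes, had a median of -0.03 over 16 genes with signal, with 1 higher and 2 lower without overlap. Etfb, a subunit of the electron carrier of the pathway, differed by 0.27 ± 0.04, Echs1, a hydratase, by -0.25 ± 0.07 and the carnitine carrier Slc25a20 by -0.16 ± 0.06. Cpt2, the inner transferase of the carnitine shuttle, differed by -0.14 ± 0.07. The share of genes without overlap in this list, 18.8%, was near the 17.3% of all genes with signal.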

How the data were processed

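The authors deposited linear probe intensity from BeadStudio, version not stated, per the submitters' processing notes; between 31.3% and 34.2% of the deposited values of an array lie below 0. The background correction, any normalization and the genome build were not given in the sources used here. Negative values were raised to 0, an offset of 16 was added, and log2 values were quantile normalized over 45281 probes. Of these, 34885 carried 1 symbol, 18 several and 10378 were unnamed here. A gene was represented by its brightest probe, by the mean over the 6 arrays. Group differences came from limma 3.58.1 in R 4.3.3 (lmFit, eBayes with a variance trend), adjusted by Benjamini-Hochberg over 19057 genes at 0.05, and the fit was tested on simulated data. Errors of log2 differences are standard errors; values of other probes came from a fit of all probes with 1 symbol. The number of arrays limits the precision, and an exact permutation test of 3 against 3 cannot go below p = 0.10. Members may all be named; of other lists, up to 4 genes with signal above the limit and the smallest unadjusted p were named. The members, lists and tests were chosen with earlier results of these data known. Protein sequences were not used here. The alternatives were other normalizations, offsets, filters, moderation, array weights, a replicate block, other use of probes, leaving out each array, and leaving Fasn out of the fatty acid branch.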

Additional observations from a re-analysis of the deposited data

How the results depend on the processing

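Under 20 alternatives 0 members passed the adjusted threshold in limma; 18 were planned, and 2 were added after seeing the data, the first array labelled Klf4-deficient alone against the controls and the fatty acid branch without Fasn. Of 547 values of member genes under 19 of these alternatives, 25 moved by more than the residual SD. In part this was fixed in advance. No variance trend, robust moderation, the replicate block, every probe tested and genes above the limit alone used the same normalized values. Log2 differences and their directions could not change under these. Msmo1 kept its direction in 19 of 19, from 0.21 to 0.36, with adjusted p from 0.052 to 0.775, and Ebp, Lss, Cyp51, Sqle, Hsd17b7, Scd2, Srebf1 and Elovl6 kept theirs in 19 of 19. Without Fasn 1 fatty acid gene lay lower without overlap, in place of 2, and the fatty acid median was -0.071. With no normalization the median of all genes with signal shifted to -0.11, the sterol median was 0.078 with 1 gene free of overlap (3.13% of all genes with signal), and the regulator median turned to -0.053. With probes of a gene averaged the sterol median was 0.065 and sterol minus fatty acid 0.15. The first array alone gave 0.13 for that difference of medians and a fatty acid median of 0.054. Higher without overlap were then 7 of 13 sterol and 3 of 6 fatty acid genes, beside 28.7% of all genes with signal. The median of all genes with signal was 0.015 with cyclic loess, 0.0078 with the first array alone and from -0.020 to 0.0021 without 1 array. Leaving out each array in turn gave sterol medians from 0.09 to 0.17, fatty acid medians from -0.21 to 0.020, regulator medians from -0.03 to 0.08, and differences of medians from 0.12 to 0.30. Between 3 and 6 sterol genes were then higher without overlap, while the share of all genes with signal ran from 10.9% to 14.6%. The 6 were counted without control array 3 (10.9%) or without array 3 labelled Klf4-deficient (13.8%). The fatty acid genes higher without overlap were then 1 and 2 of 6, in the same order. Over all genes, 2 passed, against 0 with the replicate block or the mean of probes, 1 with cyclic loess, offset 50, no variance trend, robust moderation or every probe tested, 5 with no normalization or offset 1, 3 to 23 without 1 array, and 494 with the first array alone, where the lone array is assumed to vary like the controls. The causes were not tested. Between arrays sharing a replicate number, correlations of deviations were 0.19, -0.04 and -0.18. Other pairs of a control and an array labelled Klf4-deficient ran from -0.29 to 0.26. With 3 arrays per group these values cannot tell whether the samples were paired. In the fit with the replicate block Msmo1 had an adjusted p of 0.687 in limma.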
